A study of Rattus norvegicus with 11 samples.

Results

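miR-192, miR-194 and miR-215 are epithelial microRNAs that lie in a pair of genomic clusters, and their levels were compared here between adult and suckling rat islets. They were taken from the count table by name, as every sense-strand row of these 3 miRNAs with all copies and arms, which gave 6 of 950 rows. The rule uses names alone, although earlier results of these data were known when the miRNAs were picked. The rows were miR-192-5p, miR-192-3p, miR-194-1-5p, miR-194-2-5p, miR-194-2-3p and miR-215-5p, and each name occurred at 1 position. A mature arm (5p or 3p) is the short RNA cut from either side of a miRNA hairpin, and the number after miR-194 is that of the gene copy.

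The libraries were single-end small RNA libraries of isolated pancreatic islets from control Sprague-Dawley rats. The adult group held 6 libraries from males 3 months old, and the P10 group held 5 libraries from pups 10 days old. No transgene, diet or drug is given for either age. Adults were male and pup sex was not used here, so the effects of age and sex cannot be told apart. The comparison asked which islet miRNAs differ between mature and suckling animals.

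In mammals the miR-192 cluster pairs miR-194-2 with miR-192 and the other cluster pairs miR-194-1 with miR-215. miR-192 and miR-215 share their seed, the short stretch near the 5′ end that pairs with target transcripts, while miR-194 has another seed. The clusters are best known from liver, intestine and kidney epithelium. In human cells the miR-192 cluster is a target of p53, and miR-192 and miR-215 slow the cell cycle there.

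The mature sequences show which rows can be told apart by sequence. They are the RefSeq sequences of the GRCr8 table, which matched all 6 rows by gene and arm with the same lengths as the rows, and the capitals mark the seed (bases 2 to 8 from the 5′ end).
miR-192-5p: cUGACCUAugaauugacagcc
miR-215-5p: aUGACCUAugauuugacagaca
miR-194-5p: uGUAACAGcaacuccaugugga

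miR-192-5p and miR-215-5p had the same seed, and among the 724 mature entries of the table only these 2 carried it. Counted from 1 at the 5′ end, miR-215-5p differed from miR-192-5p by C1A, A12U and C20A, and it ended 1 base later. Reads of these miRNAs can therefore be told apart by their first base as well as further on. The miR-194-5p sequence was the same at both of its genes. The hairpins are shown because the letters outside the mature arm are what separates the gene copies, with the mature 5p arm in capitals.
Mir194-1: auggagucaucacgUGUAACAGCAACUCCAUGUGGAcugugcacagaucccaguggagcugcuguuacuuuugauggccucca
Mir194-2: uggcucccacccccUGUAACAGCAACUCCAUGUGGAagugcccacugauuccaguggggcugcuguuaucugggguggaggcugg

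The base just before the capitals and the base just after them differed between the hairpins, so 0 bases beyond the mature arm were shared on either side. A read that ends within the capitals fits both genes. How the authors assigned such reads to miR-194-1-5p or miR-194-2-5p is not given in the sources used here, so each miR-194 row is uncertain as a measure of its own gene.

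In Rnor_5.0, the build of the files, the first cluster lay on the plus strand of chromosome 1. There miR-194-2-5p was at chr1:228619901-228619922 and miR-194-2-3p at chr1:228619937-228619957. miR-192-5p followed at chr1:228620095-228620115 and miR-192-3p at chr1:228620138-228620159. The second cluster lay on the plus strand of chromosome 13, with miR-194-1-5p at chr13:107924408-107924429 and miR-215-5p at chr13:107924681-107924702, 273 bases apart by their starts. In the RefSeq gene table (GRCr8) Mir194-1 and Mir215 overlapped the gene Iars2, which encodes a mitochondrial isoleucyl-tRNA synthetase. No other gene of that table overlapped Mir192 or Mir194-2. The 3p arms of miR-215 and miR-194-1 were not analysed here.

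The libraries held between 1432929 and 4483017 counts. Islet identity was read from miR-375-3p, the leading miRNA of endocrine cells, which stood at 251320 to 325130 CPM (counts per 1000000 counts, scaled by edgeR's TMM factors) in adult libraries and 113190 to 166040 CPM in P10 libraries. Of 457 tested features, 50.8% were called by edgeR (adjusted p below 0.05), 97 as higher and 135 as lower in adults, and the median log2 fold change of all features was -0.11. Arms on lists of other cell types were called as well, where 29.5% of all tested features were called lower and 21.2% higher. The mesenchymal list, 6 tested arms of miR-143, miR-145 and miR-199a, had 4 arms lower and 0 higher in adults, with a summed level of 17177 to 58305 CPM in adults and 33256 to 61145 CPM at P10. Of 3 tested acinar arms (miR-216a, miR-216b, miR-217) 2 were higher in adults. Summed over all 6 arms of these miRNAs, tested or not, the level was 28.6 to 127 CPM in adults and 22.2 to 37.7 CPM at P10. The leukocyte list had 1 of 3 tested arms lower, near the share of all features. That arm was miR-150-5p (log2 fold change -1.48), while miR-142-5p (-0.71) and miR-223-3p (0.72) were not called. In bulk islets, fewer cells of a type and less RNA per cell cannot be told apart.

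miR-192-5p carried nearly all counts of the group. Of the counts of the 6 rows, it made up 96.0% ± 0.338 (SD, n = 6) in adults and 96.9% ± 0.711 (SD, n = 5) at P10. The 6 rows together took 0.616% ± 0.0560 of all counts in adults and 1.14% ± 0.0953 at P10. These are shares of library totals without TMM scaling. Library totals alone shifted the log2 fold changes of all features by a median of -0.27 relative to TMM. By mean CPM miR-192-5p ranked 21 of 898 features in adults and 18 at P10. The order below it was the same at both ages, with miR-194-1-5p next, then miR-194-2-5p, then miR-215-5p. Ligation and PCR favour some sequences, so this order describes reads and not molecules. Neighbours in that order did not overlap within an age: the nearest approach was in adults, where the highest miR-215-5p value was 50.9 CPM and the lowest miR-194-2-5p value 51.8 CPM.

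Adult islets held less miR-192-5p, the abundant 5p arm of the chromosome 1 cluster, which in human cells restrains the cell cycle. The lowest adult library was at 5445 CPM, the median at 6229 CPM and the highest at 7844 CPM, against 8644, 13139.5, 10039.7, 8229 and 10499.8 CPM in P10 replicates 1, 3, 4, 5 and 6. The highest adult library, replicate 1, stayed below the lowest pup library, so the groups did not overlap. The ranges of 30.0% of tested features did not overlap, and 16.4% did so with adults lower. The adult mean was 6453 ± 889 CPM (SD, n = 6) and the P10 mean 10110.5 ± 1938 CPM (SD, n = 5). Its level was 1.57-fold lower in adults (log2 fold change -0.65 with an SE of 0.13; edgeR adjusted p = 0.00121). Of the 457 tested features, 29.5% were called lower, and 129 had a lower log2 fold change than miR-192-5p, so its fall was not among the deepest. Replicate spread was far above counting error, 13.8% against 0.948% in adults and 19.2% against 0.583% at P10 as coefficients of variation.

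**Figure D1:**
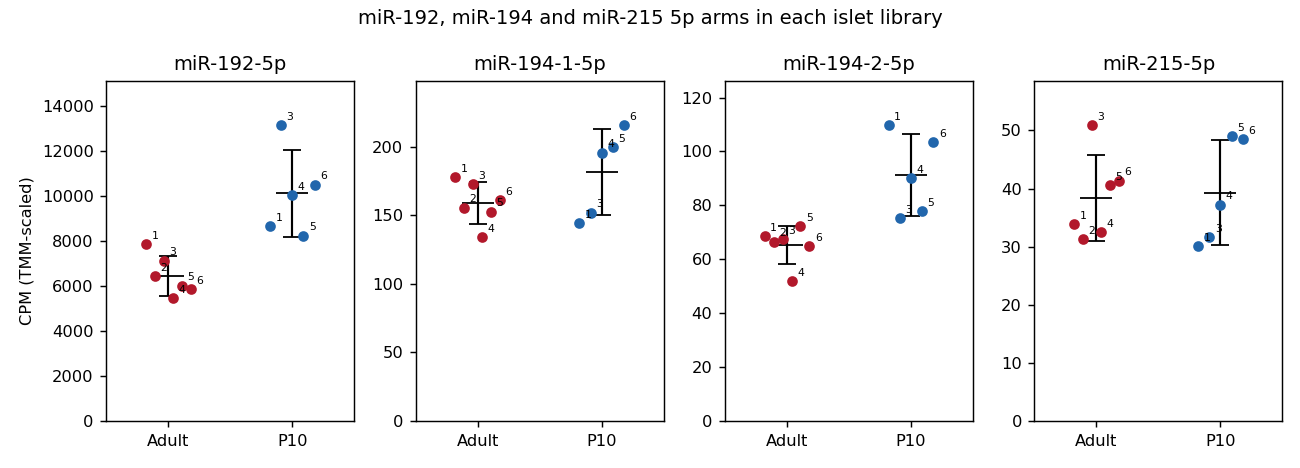
CPM (TMM-scaled, linear axes from 0) of the 4 tested 5p arms in each library, with adults left in red (n = 6) and P10 right in blue (n = 5); points carry replicate numbers, and bars are the mean ± SD. The adult points of miR-192-5p and miR-194-2-5p lie below all P10 points, while those of miR-194-1-5p and miR-215-5p overlap them.

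The size of the miR-192-5p difference depended on scaling but its call did not. Library totals alone gave a log2 change of -0.90 and upper-quartile scaling -0.49. These scalings moved the median of all features by -0.27 and 0.16. Relative to that shift the change of miR-192-5p was -0.63 and -0.66, close to -0.65 with TMM.

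P10 replicate 3 held the most miR-192-5p of all libraries (13139.5 CPM) and also the highest mesenchymal sum (61145 CPM). Among adults, replicate 1 was highest in both (7844 CPM of miR-192-5p, and a mesenchymal sum of 58305 CPM). The lowest miR-192-5p in adults, 5445 CPM in replicate 4, went with a mesenchymal sum of 18101 CPM. The lowest mesenchymal sum, 17177 CPM, was in adult replicate 6, with 5848 CPM of miR-192-5p. Adult replicate 1 had a higher mesenchymal sum than P10 replicates 1, 4, 5 and 6, but less miR-192-5p than each of them. The sum was mostly miR-143-3p (mean 29207.5 CPM in adults and 41024.5 CPM at P10), which was not called (edgeR adjusted p = 0.174). The part of mesenchymal RNA in the age difference was not tested. Without P10 replicate 3 the log2 change of miR-192-5p was -0.54 (edgeR adjusted p = 0.00159), and without adult replicate 1 it was -0.70 (0.000522).

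miR-194-2-5p, the neighbour of miR-192 on chromosome 1, was lower in adults too. In human cells miR-194 is known to repress N-cadherin, a cell adhesion protein. Adult libraries ranged from 51.8 CPM in replicate 4 to 72.3 CPM in replicate 5, with a median of 66.9 CPM, against 110 CPM in P10 replicate 1, 75.3 in replicate 3, 90.0 in replicate 4, 77.8 in replicate 5 and 103 in replicate 6. Here again every adult value lay below every P10 value. The adult mean was 65.2 ± 7.03 CPM (SD, n = 6) and the P10 mean 91.2 ± 15.2 CPM (SD, n = 5), 1.40-fold lower in adults (log2 fold change -0.48 with an SE of 0.14; edgeR adjusted p = 0.0123). It rested on 75 to 196 counts in adults and 112 to 497 at P10. The call ended with upper-quartile scaling (-0.32, adjusted p = 0.117), without the abundance filter (-0.44, adjusted p = 0.0706) and, as chosen after the counts were seen, with both miR-194 rows summed (-0.28, adjusted p = 0.0826).

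miR-194-1-5p, with the same mature sequence but listed at the chromosome 13 cluster, did not pass the test. Adult libraries lay between 134 CPM in replicate 4 and 178 CPM in replicate 1, with a median of 158 CPM, against 144, 152, 196, 199 and 216 CPM in P10 replicates 1, 3, 4, 5 and 6. P10 replicates 1 and 3 lay within the adult range and the other pups above it. The means were 159 ± 15.6 CPM in adults (SD, n = 6) and 181 ± 31.4 CPM at P10 (SD, n = 5), and the log2 fold change was -0.19 with an SE of 0.14 (edgeR adjusted p = 0.271). It passed as lower only with library totals alone, among the settings tried (-0.46, adjusted p = 0.0200). Summed over both rows, miR-194-5p was at 224 ± 21.1 CPM in adults (SD, n = 6) and 273 ± 34.5 CPM at P10 (SD, n = 5).

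miR-215-5p, the partner of miR-194-1 that shares the miR-192 seed, was at nearly the same mean level at both ages. Adult libraries lay between 31.3 CPM in replicate 2 and 50.9 CPM in replicate 3, with a median of 37.2 CPM, against 30.1, 31.6, 37.2, 49.0 and 48.4 CPM in P10 replicates 1, 3, 4, 5 and 6. The ranges overlapped over almost their whole length. The means were 38.4 ± 7.42 CPM in adults (SD, n = 6) and 39.3 ± 9.04 CPM at P10 (SD, n = 5), and the log2 fold change was -0.040 with an SE of 0.19 (edgeR adjusted p = 0.859). The sign turned with DESeq2 size factors (0.051) and upper-quartile scaling (0.13), and it stayed negative with library totals alone (-0.31); none of these passed. With 40 to 110 counts in adults and 47 to 233 at P10, counting error alone gave a coefficient of variation of 12.5% in adults and 9.95% at P10.

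Of the 6 rows, 4 passed the abundance filter, and of these 2 were lower, 0 higher and 2 not called in adults. The median log2 fold change of the 4 was -0.34, against -0.11 over all 457 features. Among all tested features 29.5% were called lower and 21.2% higher. The number lower was 1 with upper-quartile scaling, where 22.5% of all features were called lower, and 1 without the filter, where 13.4% were. It was 3 with library totals alone, where 40.9% were. Both rows called lower are listed at the chromosome 1 cluster. The ratio of miR-194-2-5p to miR-194-1-5p did not pass (exact permutation adjusted p = 0.108), and how miR-194 reads were assigned is not known. A difference between the clusters is therefore not shown by the miR-194 rows. The 2 planned ratios, miR-215-5p to miR-192-5p and miR-192-5p to miR-194-1-5p, also compare the clusters. Each passed (exact permutation adjusted p = 0.0260), but neither did when adjusted over all 5 ratios (0.0649 each, same test). A difference between the clusters was thus not firm.

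**Figure D2:**
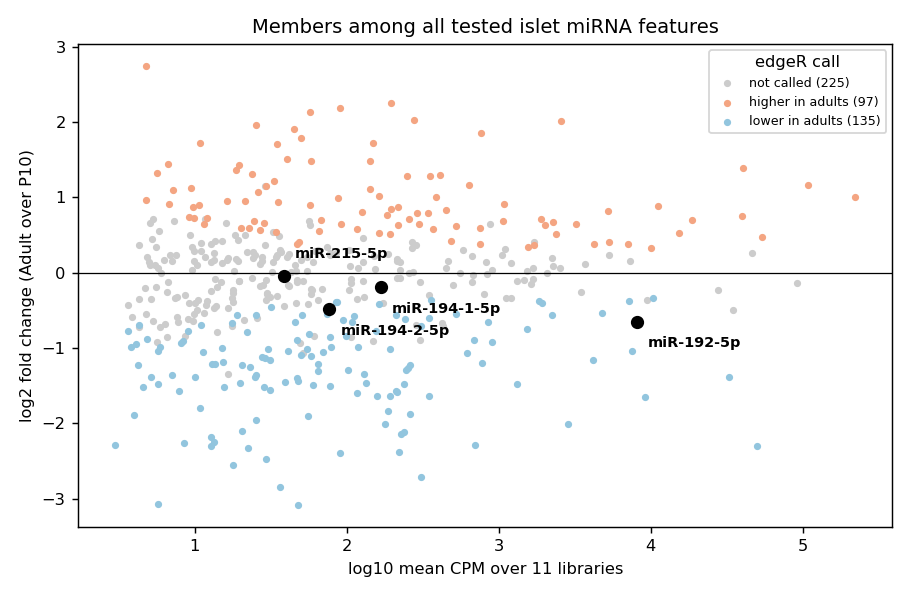
Log2 fold change (adult over P10) against log10 mean CPM over the 11 libraries for the 457 tested features, coloured by edgeR call, with the 4 tested members in black. miR-192-5p lies at high abundance with a log2 fold change of -0.65, and miR-215-5p lies near 0.

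The 3p arms were barely counted and failed the filter. miR-192-3p had 0 to 4 counts in adult libraries and 0 to 11 in P10 libraries, and miR-194-2-3p had 1 to 4 in adults and 2 to 8 at P10. Summed over libraries, miR-192-3p made up 0.0152% of the miR-192 counts in adults (11 of the 3p arm beside 72145 of the 5p arm, 95% Clopper-Pearson interval 0.00761% to 0.0273%) and 0.0166% at P10 (27 beside 163151, 0.0109% to 0.0241%). The 3p share of miR-194-2 was 1.70% in adults (13 beside 751, 0.909% to 2.89%) and 1.95% at P10 (31 beside 1555, 1.33% to 2.76%). Where a library had 0 counts of miR-192-3p, a share of up to 0.0324% was possible in adult replicate 1 and of up to 0.0153% in P10 replicate 3, at 3 counts. These intervals and limits cover counting error only. A test of arm usage needed at least 10 counts on average for each arm, so none was made.

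Ratios between members within a library need no scaling and show whether their age differences were alike. miR-192-5p stood at a median of 41.0 times the higher miR-194-5p row in adults (36.4 to 44.1), against 59.9, 86.5, 51.3, 41.3 and 48.7 times in P10 replicates 1, 3, 4, 5 and 6. In every library the higher row was that of miR-194-1-5p. Only P10 replicate 5 lay within the adult range. The log2 ratio averaged 5.33 ± 0.091 (SD, n = 6) in adults and 5.79 ± 0.40 (SD, n = 5) at P10. The difference was -0.46, with p = 0.0130 by a two-sided exact permutation test over 462 group assignments and an adjusted p = 0.0260 over the 2 planned ratios. The ratio of miR-215-5p to miR-192-5p ran the other way, at 0.00432 to 0.00714 in adults with a median of 0.00635, and 0.00348, 0.00240, 0.00371, 0.00596 and 0.00461 in P10 replicates 1, 3, 4, 5 and 6. P10 replicates 5 and 6 lay within the adult range. The difference in log2 ratio was 0.63 (exact permutation p = 0.0260, adjusted p = 0.0260), so miR-215-5p made up 0.598% ± 0.118 (SD, n = 6) of the counts with this seed in adults and 0.401% ± 0.132 (SD, n = 5) at P10.

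These calls were not firm, and both ratios hold miR-192-5p, so they are not independent. Adjusted over all 5 ratios, with the 3 chosen after the counts were seen, each had an adjusted p = 0.0649 by the same exact permutation test. Leaving out P10 replicate 1 or P10 replicate 3 gave an adjusted p = 0.0571 for each, and without P10 replicate 3 the differences in log2 ratio were -0.31 for miR-192-5p to miR-194-5p and 0.47 for miR-215-5p to miR-192-5p.

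The 3 other ratios did not pass. miR-192-5p to its own neighbour miR-194-2-5p was 83.2 to 114 in adults, with a median of 101, and 78.8, 175, 112, 106 and 102 in P10 replicates 1, 3, 4, 5 and 6. P10 replicate 1 lay below the adult range, replicate 3 above it and the others within it. The log2 difference was -0.18 (exact permutation adjusted p = 0.411), -0.016 without P10 replicate 3 and -0.30 without P10 replicate 1. miR-194-2-5p to miR-194-1-5p, the rows with 1 mature sequence, was 0.386 to 0.473 in adults, with a median of 0.397, and 0.760, 0.496, 0.460, 0.390 and 0.479 in P10 replicates 1, 3, 4, 5 and 6. P10 replicate 1 stood apart from the rest, and the log2 difference of -0.29 did not pass (exact permutation adjusted p = 0.108). It was -0.14 without P10 replicate 1 (adjusted p = 0.179) and -0.38 without P10 replicate 5 (0.0317) in the same exact test. miR-215-5p to miR-194-1-5p, the chromosome 13 pair, was 0.190 to 0.295 in adults, with a median of 0.250, and 0.208, 0.208, 0.190, 0.246 and 0.225 in P10 replicates 1, 3, 4, 5 and 6. This was the tightest ratio at P10, and the log2 difference was 0.17 (exact permutation adjusted p = 0.238). The smallest p these assignments can give is 0.00433.

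**Figure D3:**
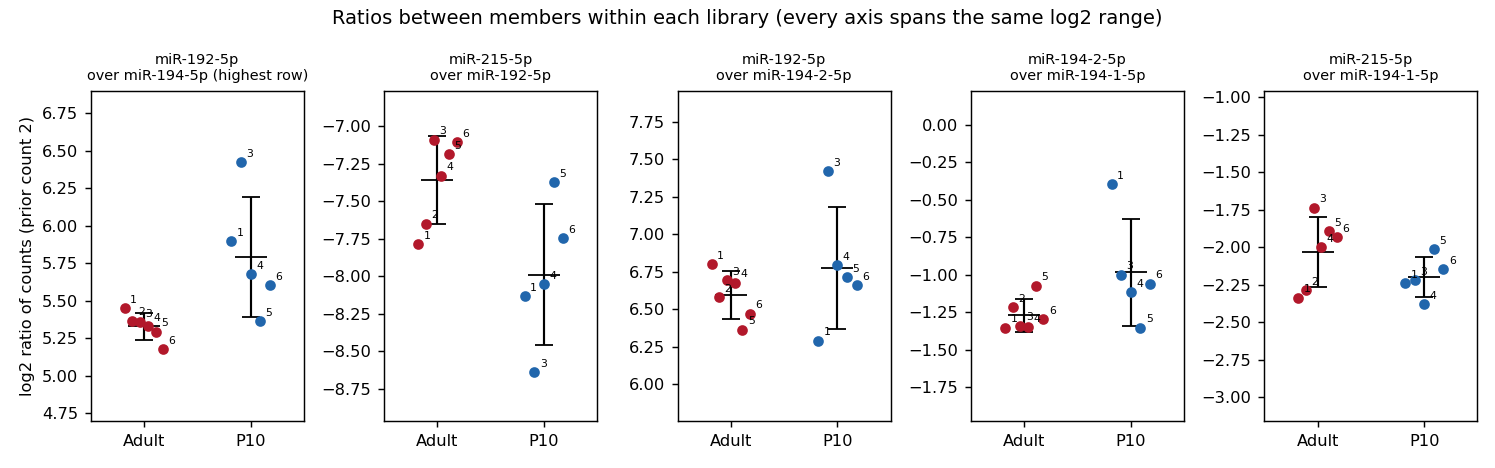
Log2 ratios of counts (prior count of 2) between members in each library, with adults left in red (n = 6) and P10 right in blue (n = 5); points carry replicate numbers, bars are the mean ± SD, and each axis spans the same log2 range. The adult miR-192-5p to miR-194-5p ratios are the most tightly grouped, and P10 replicate 3 has the highest ratio of miR-192-5p and P10 replicate 1 the highest ratio of miR-194-2-5p to miR-194-1-5p.

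How closely the members followed each other differed by pair and by the set of libraries used. On the log2 CPM scale with each age mean subtracted, over 11 libraries, miR-192-5p and miR-194-2-5p had a Pearson r of 0.013 although they lie in the same cluster. For miR-215-5p and miR-194-1-5p, of the other cluster, r was 0.73. miR-194-1-5p and miR-194-2-5p, with the same mature sequence, had r = 0.22. For miR-192-5p and miR-194-1-5p, of different clusters, r was 0.18. Over the 6 adult libraries alone, r was 0.58 for miR-192-5p and miR-194-2-5p, 0.89 for miR-192-5p and miR-194-1-5p, and 0.73 for the miR-194 rows. For miR-215-5p and miR-194-1-5p it was 0.43 in adults, so the order of the cluster pairs differed from that over 11 libraries. These points share libraries and scaling, and the values are descriptions.

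Among 197 other features of at least 50 CPM, those whose within-age pattern was most like that of miR-192-5p were miR-99a-5p, miR-21-5p, miR-30a-5p, miR-30e-3p and miR-145-3p, with r between 0.89 and 0.92 over the 11 libraries. Without the 2 libraries farthest from the median, P10 replicates 3 and 5, r was between 0.81 and 0.91. miR-145-3p belongs to the mesenchymal list and was at 54.9 ± 23.8 CPM in adults (SD, n = 6) and 108 ± 33.8 CPM at P10 (SD, n = 5). miR-21-5p, a miRNA raised in many growing and stressed tissues, was at 4639 ± 1067 CPM in adults and 14603 ± 4095 CPM at P10 (log2 fold change -1.65, edgeR adjusted p = 1.41e-05). miR-30a-5p went the other way with age, at 17770.5 ± 1210.3 CPM in adults and 12276 ± 2676 CPM at P10 (log2 fold change 0.53, edgeR adjusted p = 0.00409). With the age difference left in, the closest were miR-21-5p, miR-24-5p, miR-130a-3p, miR-10b-5p and miR-10a-5p, all lower in adults. Their likeness then includes the age difference itself, so no r is given for them.

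Other miRNAs tied to p53 were compared as a list. Of 7 tested arms of the p53-linked list (miR-34a, miR-34b, miR-34c, miR-107, miR-143, miR-145), 3 were lower and 0 higher in adults, where 29.5% of all features were lower and 21.2% higher. No arm of miR-34b was among the 7, and 4 of the 7, those of miR-143 and miR-145, are also on the mesenchymal list. The list's median log2 fold change was -0.63, against -0.11 over all features. The median is the value of miR-143-5p. Those lower were miR-34c-5p, a direct p53 target in mammals, at 61.4 ± 9.51 CPM in adults (SD, n = 6) and 150 ± 19.2 CPM at P10 (SD, n = 5; log2 fold change -1.29, edgeR adjusted p = 8.62e-06), and both arms of miR-145. miR-34a-5p did not pass, at 11.8 ± 2.93 CPM in adults and 13.9 ± 1.97 CPM at P10 (edgeR adjusted p = 0.350). miR-107-3p did not pass either (log2 fold change 0.23, edgeR adjusted p = 0.141).

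Of 4 tested arms on the list of other liver, gut or kidney miRNAs, 1 was lower and 0 higher in adults, a share near the 29.5% of all features called lower. This list's median log2 fold change was -0.56. The 1 that was lower was miR-10a-5p, from a Hox cluster, at 19082 ± 7529 CPM in adults and 49639.8 ± 16748 CPM at P10 (edgeR adjusted p = 0.000692). miR-802-5p, known from liver and islets, was at 55.0 ± 16.2 CPM in adults and 54.0 ± 9.40 CPM at P10 (log2 fold change 0.026 with an SE of 0.20; edgeR adjusted p = 0.918). The hepatocyte marker miR-122 and the endothelial marker miR-126 were not analysed here.

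Of 5 tested arms on the epithelial list (miR-200b, miR-141 and miR-429), which keep epithelial cells from turning mesenchymal, 3 were higher and 0 lower in adults. The summed level of all 6 arms of these miRNAs, tested or not, was 48882 to 59676 CPM in adults and 24841 to 38561 CPM at P10. In the islet endocrine list 5 of 7 tested arms were higher and 0 lower. Among all tested features 21.2% were called higher and 29.5% lower. The 7 endocrine arms came from miR-375, miR-7a-1, miR-7a-2 and miR-7b, so they are not independent.

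**Figure D4:**
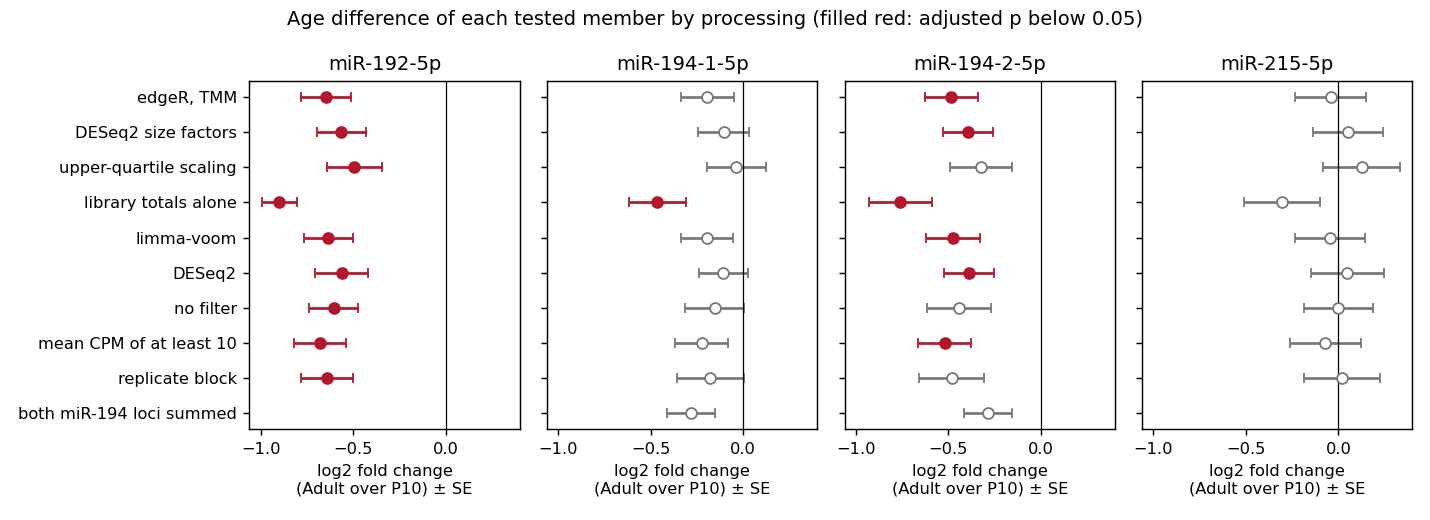
Log2 fold change (adult over P10) ± SE of each tested member under alternative scalings, filters, tools and designs; filled red points have an adjusted p below 0.05 and open grey points do not. miR-192-5p is red in each setting shown for it, miR-194-2-5p in 6 of the 10 shown (the summed miR-194 rows included), and miR-215-5p lies on both sides of 0.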

How the data were processed

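The deposited values are raw counts of reads for each mature arm at each position, on Rnor_5.0 per the file headers (rn5 per the submitters' processing notes, which also name DESeq and edgeR without a role). Not given in the sources used here are the aligner, the counting rules and the annotation. Per the labels' protocols, RNA was extracted with Trizol and ligated into TruSeq small RNA libraries. The series-wide table held the same counts as the 11 per-library tables. Each name entered once, with its highest count in each library, which left 898 features.

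Counts were analysed in R 4.3.3 with edgeR 4.0.16: filterByExpr, TMM, a robust quasi-likelihood fit of age, and Benjamini-Hochberg adjustment over 457 features with a threshold of 0.05. The SE of an edgeR log2 fold change was calculated back from its test, as its absolute value over the square root of the quasi-likelihood F statistic. Log2 values used a prior count of 2. Ratios were tested by two-sided exact permutation (scipy 1.17.1). Alternatives changed the scaling, the filter, the rows per name and the design, left out each library, or used limma 3.58.1 and DESeq2 1.42.0. On simulated counts of 452 features the edgeR step recovered 51.5% of 1.5-fold, 92.4% of 2-fold and 100% of 4-fold changes, and called 9 of 254 unchanged features.

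All tested members, up to 2 of the most abundant miRNAs of each of 9 lists, and the 5 features most like miR-192-5p could be named. Beyond these, miR-34a-5p, miR-34c-5p, miR-107-3p, miR-143-5p and miR-223-3p were added after their values were seen. The rule for members uses names alone, but these miRNAs and the lists were chosen with earlier results of these data known. Per the labels the libraries are biological replicates, with no word on pooled animals. Every pair of the same age differed by more than sampling noise (chi-square per degree of freedom of at least 11.7). Read counts without molecular identifiers are not molecules.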

Additional observations from a re-analysis of the deposited data

Results flagged for a closer look

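In adult replicate 4, miR-194-2-5p was at 51.8 CPM, farther below the other adults than the spread among them (gap over range 0.636). It rested on 75 counts. Of 22 groups of values checked, 1 was marked in this way, and chance marks about 1 in 20.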

How the results depend on the processing

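miR-192-5p was lower in adults and passed in all 22 alternatives run for it (log2 change -0.90 to -0.49). miR-194-2-5p did not pass with upper-quartile scaling (-0.32), no filter (-0.44) or summed miR-194 rows (-0.28). With upper-quartile scaling or no filter 1 member was lower, and with library totals alone 3 were. miR-194-1-5p passed with library totals alone (-0.46). miR-215-5p turned positive with DESeq2 size factors (0.051), upper-quartile scaling (0.13), DESeq2 (0.048) and the replicate block (0.018), and ran from -0.12 to 0.073 with each library left out. Relative to the median shift of all features, miR-194-1-5p was at -0.20 with library totals alone, against -0.19 with TMM. On the same basis miR-194-2-5p was at -0.49 with upper-quartile scaling, against -0.48. miR-215-5p was at -0.041 with DESeq2 size factors and -0.037 with upper-quartile scaling, against -0.040. Over all features, 54 were higher and 187 lower with library totals alone (22.4% of calls higher), and 127 and 103 with upper-quartile scaling (55.2%), against 97 and 135 (41.8%). DESeq2 called 128 higher and 122 lower. With each library left out, the log2 difference of the miR-192-5p to miR-194-5p ratio ran from -0.57 to -0.31, of miR-215-5p to miR-192-5p from 0.47 to 0.79, of miR-194-2-5p to miR-194-1-5p from -0.38 to -0.14, and of miR-192-5p to miR-194-2-5p from -0.30 to -0.016. The first 2 of these, -0.46 and 0.63, had an adjusted p = 0.0649 in the exact permutation test adjusted over all ratios. The cause of these moves was not tested, other than that more tests were adjusted over.

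The replicate numbers are shared between ages, but same-numbered libraries did not deviate together (correlations from -0.21 to 0.20, and 1 of 5 closest to its own number). With the replicate block miR-194-2-5p was at -0.48 (edgeR adjusted p = 0.0502), 1 member and 112 of 457 features were lower, and the paired differences of the first 2 ratios were -0.47 and 0.69, each at 0.0625, the smallest p that an exact sign flip over 5 pairs can give. Depth limited the 3p arms, of at most 11 counts a library.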
